A study of Mus musculus with 6 samples.

Results

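The coagulation and fibrinolysis genes were 36 genes chosen by gene name from the 55450 gene IDs counted in each library. They cover the fibrinogen chains, the clotting zymogens and cofactors, the contact system, plasminogen with its activators and inhibitors, the coagulation inhibitors, the vitamin K cycle, and Fgl1 and Hgfac, which are related to fibrinogen and to the clotting proteases by sequence. They were measured in 6 bulk RNA-Seq libraries of hepatocytes isolated by collagenase perfusion from male mice, C57BL/6 in the labels and C57BL/6J in the study's methods, given as 10 to 12 weeks old, after partial hepatectomy (PHx, surgical removal of part of the liver, after which the remaining cells divide). The 3 libraries at 0 h came from undamaged liver, not from sham-operated animals, and the 3 libraries at 48 h from the liver remnant, so that surgery, anaesthesia and regeneration cannot be told apart. The labels only number the replicates, and the study describes those of each time point as hepatocyte preparations from separate mice.

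Hepatocytes make most of the circulating clotting and fibrinolytic proteins. Tissue factor with factor VII, and the contact system through factor XI, feed a cascade of proteases that ends in thrombin, which cuts fibrinogen to fibrin, while antithrombin, heparin cofactor II, the protein C and protein Z systems and tissue factor pathway inhibitor restrain it, and plasmin dissolves the clot. Fibrinogen is also an acute-phase protein, made in larger amounts when interleukin 6 signals to the hepatocyte through STAT3. Many of the members depend on liver-enriched factors such as HNF4 and C/EBP.

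Depth was similar across libraries, with 3.14e+07 to 3.63e+07 counts assigned to genes. A floor of 3 counts corresponded to 0.0825 to 0.0955 CPM (counts divided by library size in units of 1e+06), and this floor covers counting error only. Levels below are CPM scaled by TMM (trimmed mean of M values), a scaling that sets most genes to no change, and log2 fold changes are 48 h minus 0 h. The test was the quasi-likelihood F test of edgeR, adjusted by Benjamini and Hochberg's method over all 17037 genes tested, and a gene is said to rise or fall at an adjusted p under 0.05. TMM factors were 0.9134 to 0.9498 at 0 h and 1.0178 to 1.1053 at 48 h. The hepatocyte label was met by Alb, at 55171 to 72948 CPM at 0 h and 32335 to 39727 CPM at 48 h. Endothelial markers were also present, and all 12 fell, against 19.3% of all genes. Their summed level was 290.2 to 448 CPM at 0 h and 205 to 227 CPM at 48 h. Stab1 and Stab2 were detected in every library. In bulk samples, fewer cells of a type and less RNA per cell cannot be told apart. The library 48 h replicate 1 stood furthest from its group, and results that rest on it are given with and without it.

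Promoter sequence was read from RefSeq windows of GRCm38.p6, 250 bases before to 50 bases after each annotated start, which matched 29 of the 36 members. The fibrinogen genes are shown because they had the highest levels per length and moved opposite to most of them, and Hgfac because it fell while holding a STAT match of the same letters as Fga. Capitals mark matches to 3 motifs searched on both strands: the core of the interleukin 6 response element, CTGGGAA, a STAT palindrome, TTCNNNGAA, and a C/EBP site, TTGCNNAA. Each line runs 5′ to 3′ on the strand of the gene and ends at the base before the start of its GENCODE model. For Fga that start lies upstream of the RefSeq start, so its line is shorter (173 bases, against 250 for the others). They are Fga at chr3:83025903-83026075 (plus strand), Fgb at chr3:83049864-83050113 (minus strand), Fgg at chr3:83007474-83007723 (plus strand) and Hgfac at chr5:35041259-35041508 (plus strand).
Fga: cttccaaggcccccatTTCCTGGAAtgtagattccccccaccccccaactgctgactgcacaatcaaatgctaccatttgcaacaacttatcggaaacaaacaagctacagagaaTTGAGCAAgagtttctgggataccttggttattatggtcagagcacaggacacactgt
Fgb: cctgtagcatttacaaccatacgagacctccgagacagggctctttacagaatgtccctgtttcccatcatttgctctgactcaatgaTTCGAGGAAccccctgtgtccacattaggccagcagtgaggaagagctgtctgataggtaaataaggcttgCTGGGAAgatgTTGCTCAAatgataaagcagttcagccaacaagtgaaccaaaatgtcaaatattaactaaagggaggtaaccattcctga
Fgg: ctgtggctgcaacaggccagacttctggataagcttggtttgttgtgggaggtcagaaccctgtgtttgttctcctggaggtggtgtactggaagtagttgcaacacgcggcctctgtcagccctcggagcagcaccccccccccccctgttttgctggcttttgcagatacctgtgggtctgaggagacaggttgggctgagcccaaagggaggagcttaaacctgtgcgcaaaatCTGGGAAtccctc
Hgfac: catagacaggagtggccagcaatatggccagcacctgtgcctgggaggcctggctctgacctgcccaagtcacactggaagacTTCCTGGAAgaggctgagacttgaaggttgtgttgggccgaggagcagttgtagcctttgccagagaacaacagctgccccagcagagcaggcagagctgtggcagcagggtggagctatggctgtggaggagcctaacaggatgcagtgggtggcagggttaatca
Counted from the GENCODE start, the STAT match lay 157 bases before it in Fga, as TTCCTGGAA (234 from the RefSeq start), 162 bases before it in Fgb and 167 bases before it in Hgfac. The core CTGGGAA lay 91 bases before the start of Fgb and 13 bases before that of Fgg. C/EBP matches stood at 58 bases in Fga (135 from the RefSeq start) and 80 bases in Fgb. The STAT palindrome was in 5 of the 29 member windows, against 8.47% of all 27025 promoters, and in 3 of the 4 windows of members that rose (Fga, Fgb and Pros1), 1 of the 16 of members that fell (Hgfac) and 1 of the 9 of the other members (F9). The core CTGGGAA was in 5 of the 29 windows and 11.1% of all promoters, in 2 of the 4 members that rose (Fgb and Kng2), 0 of the 16 that fell and 3 of the 9 others (Fgg, F9 and Tfpi). The C/EBP site was in 12 member windows and 10.8% of all promoters, in 3 of the 4 members that rose, 4 of the 16 that fell and 5 of the 9 others. Fgl1 and Serpina10 also rose but had no window, so they are not in these counts. With 4 windows of members that rose, these splits were not tested. An HNF4 core, CAAAGTCCA, was in 0 of the 29 windows and 0.477% of all promoters. These matches describe letters in the windows and are not evidence of binding.

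Of the 36 members, 34 had enough counts to be tested. At 48 h 18 members fell and 6 rose, while 10 passed in neither direction. The share that fell was 52.9% of those tested, against a background of 19.3% of all genes, and the share that rose was 17.6%, against 21.4% of all genes. Either call was made for 70.6% of the members and 40.7% of all genes. The median log2 fold change of the members was -0.48, against -0.003 over all genes tested. Changes of at least 1 on the log2 scale were seen in 5 members that fell (7.94% of all genes) and 2 that rose (9.69% of all genes). All 3 libraries at 48 h lay below all 3 at 0 h for 19 members, against 25% of all genes, and above them for 6 members, against 27.8%. These counts include Plau (below) and Plaur (above), which did not pass the test. Each reached the minimum count for testing only with the libraries of the group where it was higher, which favours the direction counted. Scaled to library size alone, which moves the median of all genes by 0.20, 13 members fell and 9 rose. Under that scaling 2108 of all 17037 genes tested fell and 5309 rose.

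**Figure D1:**
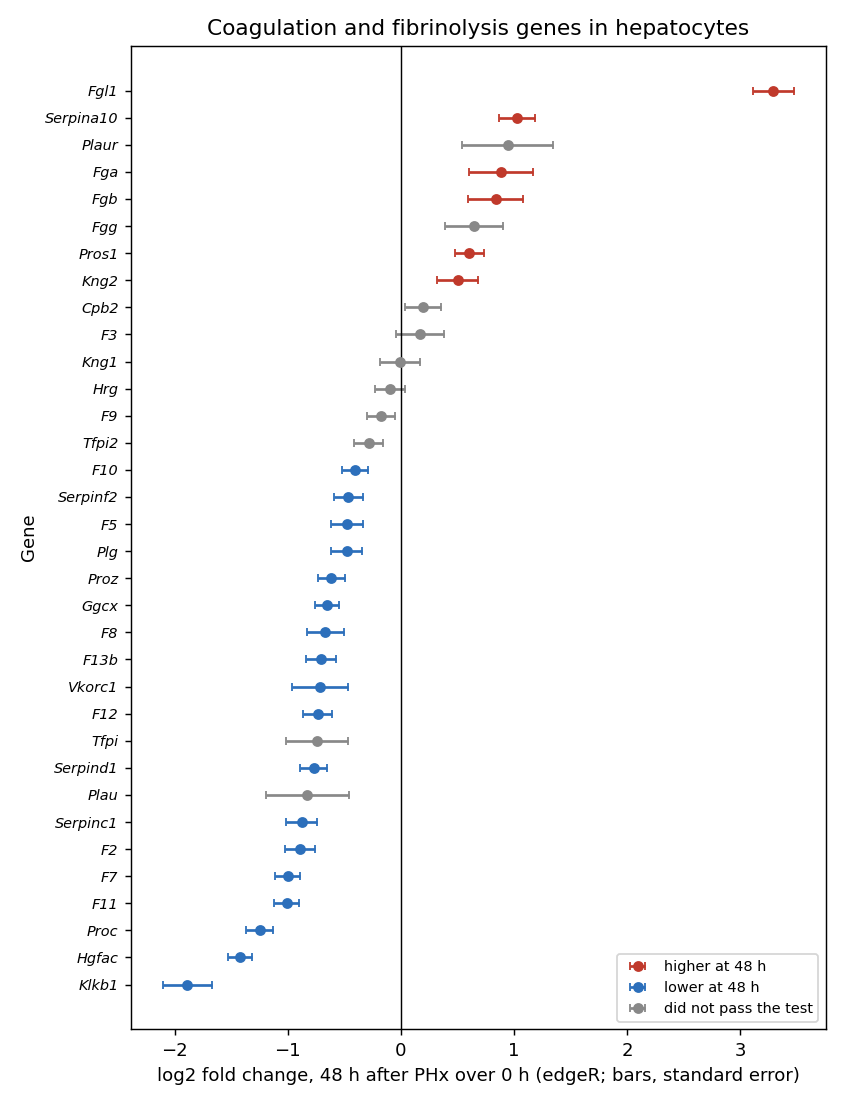
Fitted log2 fold change (48 h minus 0 h, horizontal axis) with its standard error for the 34 members tested, coloured by call at an adjusted p under 0.05. Fgl1 stands far to the right of the others at 3.29, and Klkb1, Hgfac and Proc are furthest to the left, at -1.89, -1.42 and -1.25.

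Per length, the members spanned a wide range of levels in undamaged liver. Fga stood at 1811 CPM per kilobase of exon, Fgb at 1302 and Fgg at 959, followed by Plg (plasminogen) at 869 and Hrg (histidine-rich glycoprotein) at 808. Prothrombin (F2) had 344 CPM per kilobase, antithrombin (Serpinc1) 222, Proc 138 and F7 45.5. Length was the merged exon bases of all annotated transcripts of a gene, 4594 for F2 and 8546 for Serpinc1. The order depends on it, since without division by length Serpinc1 (1898 CPM) stood above F2 (1579 CPM). At the low end Plat stood at 0.003 CPM per kilobase, Serpina5 at 0.084 and Plaur at 0.102. Fgl1 moved from 13.7 CPM per kilobase at 0 h to 134.6 at 48 h.

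**Figure D2:**
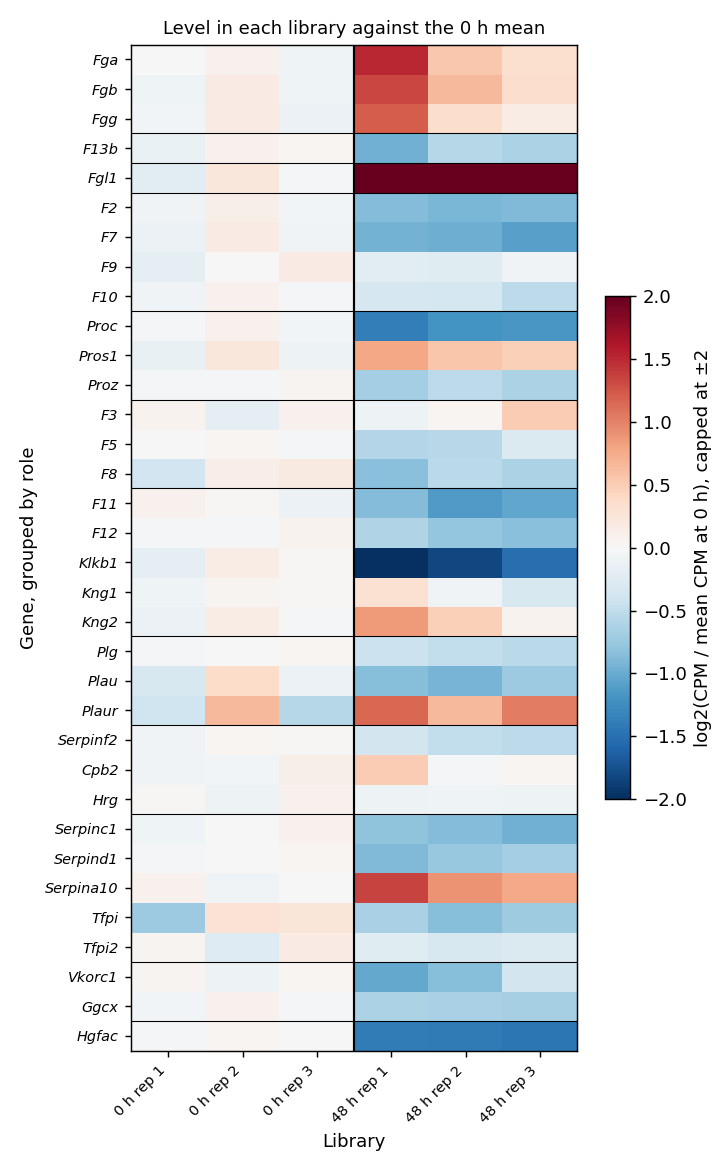
Heat map of log2(CPM divided by the mean CPM at 0 h), shown between -2 and 2, for the 34 members tested (rows, grouped by role) in the 6 libraries (columns). Blocks of lower values at 48 h cover the zymogens, the contact proteases, Hgfac and the enzymes of the vitamin K cycle, and the higher values of Fga, Fgb and Fgg are deepest in 48 h replicate 1.

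The alpha and beta chains of fibrinogen, the precursor of fibrin, rose. Fga, the alpha chain, had 5455, 5771 and 5124 CPM at 0 h and 15476, 7935 and 6784 CPM at 48 h. All 3 libraries at 48 h were above those at 0 h, and 48 h replicate 1 was far above the other two. The mean went from 5450.1 ± 324 to 10065 ± 4721 CPM (SD, n = 3), a log2 fold change of 0.88 (SE 0.283, edgeR adjusted p = 0.0293). Fgb, the beta chain, had 4670.4, 5535 and 4677 CPM at 0 h and 12535, 7738 and 6352 CPM at 48 h, again with no overlap and with replicate 1 highest. Its log2 fold change was 0.84 (SE 0.246, adjusted p = 0.0198). Fgg, the gamma chain, had 1923, 2244 and 1856 CPM at 0 h and 4664, 2549.6 and 2227 CPM at 48 h. Its lowest library at 48 h lay under the highest at 0 h, and its log2 fold change of 0.65 (SE 0.257) did not pass (adjusted p = 0.0672). Without 48 h replicate 1 the log2 fold change of Fga was 0.43 (adjusted p = 0.0583) and that of Fgb 0.50 (adjusted p = 0.0415), while that of Fgg was 0.25 (adjusted p = 0.253). The call on Fga was also lost without any 1 of the 3 libraries at 0 h (adjusted p = 0.082, 0.0646 and 0.092), and that on Fgb without 0 h replicate 1 or 3 (adjusted p = 0.0725 and 0.0707). Fgg passed without 48 h replicate 3 (log2 fold change 0.85, adjusted p = 0.0221). Over 16 alternatives the adjusted p ran from 0.000273 to 0.092 for Fga, 0.000292 to 0.0725 for Fgb and 0.0053 to 0.253 for Fgg.

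The 3 fibrinogen genes took a larger part of the library at 48 h. Together they held 1.13%, 1.29% and 1.06% of gene counts at 0 h and 3.32%, 2.0% and 1.70% at 48 h, and the groups did not overlap. The other 33 members held 1.55%, 1.65% and 1.60% at 0 h and 1.43%, 1.41% and 1.38% at 48 h, lower in every library at 48 h. The summed level of all members, 28600 to 30960 CPM at 0 h and 27841 to 46733 CPM at 48 h, overlapped between the groups. A list of 25 acute-phase and interleukin 6 pathway genes moved with fibrinogen. It held 2.03 to 2.35% of gene counts at 0 h and 7.75%, 5.44% and 4.99% at 48 h. Of its 25 genes 21 rose (84%, against 21.4% of all genes). Within the 48 h group replicate 1 was the highest library for 6 of the 6 members that rose, for 19 of the 21 acute-phase genes that rose and for 46.0% of all genes that rose. The part of that library in the fibrinogen result was not tested beyond leaving it out.

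**Figure D3:**
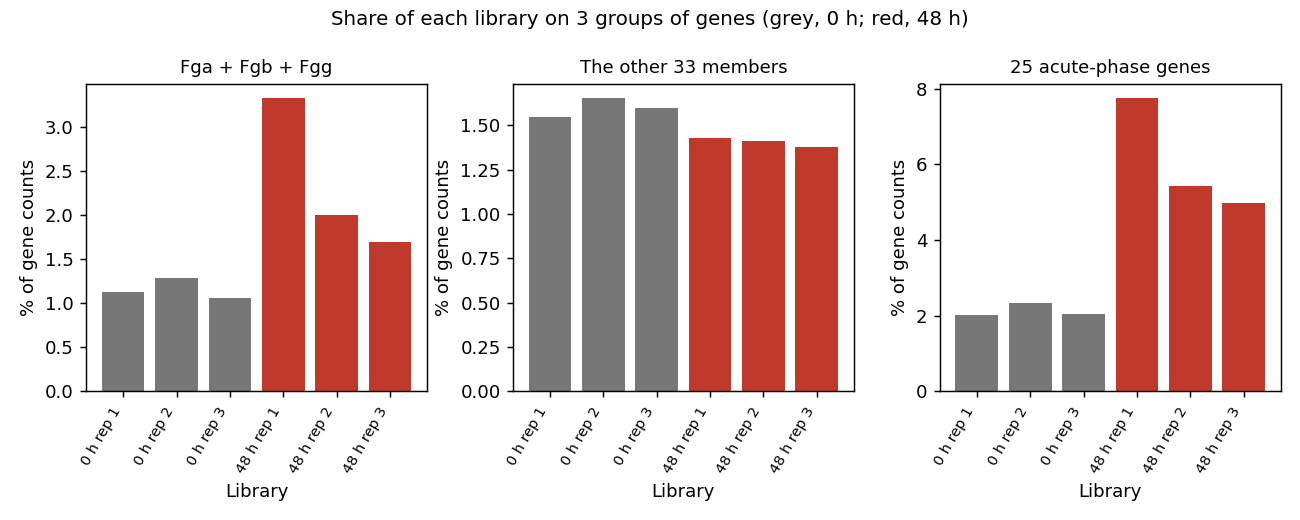
Percent of gene counts in each of the 6 libraries held by Fga, Fgb and Fgg together, by the other 33 members and by 25 acute-phase genes (3 panels, bars from 0, each with its own vertical axis). The fibrinogen and acute-phase panels both peak in 48 h replicate 1, at 3.32% and 7.75%, while the other members are between 1.38% and 1.43% at 48 h.

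The balance between the chains was compared per length. There, the ratio of Fga to Fgg was 1.97, 1.79 and 1.92 at 0 h and 2.31, 2.16 and 2.12 at 48 h, and that of Fgb to Fgg was 1.33, 1.35 and 1.38 at 0 h and 1.48, 1.67 and 1.57 at 48 h. Both ratios were higher in every library at 48 h. For each the two-sided exact permutation test gave p = 0.1, the smallest that 3 against 3 libraries allow, and 0.2 after adjustment over the 6 ratios tested. The ratio of Fga to Fgb was 1.39 ± 0.0797 at 0 h and 1.40 ± 0.14 at 48 h (SD, n = 3), with an exact permutation p = 1. The genes lie in 1 cluster on chromosome 3 (mm10), Fgg at 83007724 to 83015049, Fga at 83026076 to 83033627 and Fgb at 83040141 to 83049863 on the opposite strand. The exons of Fgg overlap those of an antisense gene model over 5.49% of their bases.

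Fgl1, a secreted fibrinogen-like protein of hepatocytes that stimulates their growth and does not form clots, had the largest change among the members. It is on chromosome 8 at 41191434 to 41215156 (mm10, minus strand). Its level was 52.2, 71.3 and 59.0 CPM at 0 h and 721, 560.4 and 508 CPM at 48 h. The lowest library at 48 h was several times above the highest at 0 h. The mean rose 9.81-fold, from 60.8 ± 9.66 to 597 ± 111 CPM (SD, n = 3), a log2 fold change of 3.29 (SE 0.183, adjusted p = 4.23e-07), which lay between 3.13 (without 48 h replicate 1) and 3.49 over 16 alternatives with an adjusted p of at most 1.38e-05. Relative to Fga per length, Fgl1 went from 0.00757 ± 0.000967 to 0.0435 ± 0.0103 (exact permutation p = 0.1). F13b, the carrier subunit of factor XIII, which cross-links fibrin, moved the other way, with 151, 174 and 169 CPM at 0 h and 84.8, 111 and 107 CPM at 48 h. All its libraries at 48 h were below those at 0 h, and it fell by 0.70 on the log2 scale (SE 0.131, adjusted p = 0.00175).

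Of the 4 vitamin K-dependent procoagulant zymogens, 3 fell (75%, against 19.3% of all genes). F2, prothrombin, had 1511, 1709 and 1516 CPM at 0 h and 865, 841 and 854 CPM at 48 h. The groups were far apart, and the libraries at 48 h differed little from each other. F2 fell by 0.89 on the log2 scale (SE 0.133, adjusted p = 0.000451), to 0.540 of its level at 0 h. F7, the protease that tissue factor activates, had 77.8, 95.3 and 80.8 CPM at 0 h and 44.0, 43.2 and 39.7 CPM at 48 h, with no overlap, and fell by 1.0 (SE 0.112, adjusted p = 6.66e-05). F10, whose active form makes thrombin, had 302, 335 and 309 CPM at 0 h and 249, 247 and 219.6 CPM at 48 h. These groups too did not overlap, but the gap was smaller, and the log2 fold change was -0.40 (SE 0.118, adjusted p = 0.0198). The call on F10 was lost without 48 h replicate 2 or 3 (adjusted p = 0.0536 and 0.0748), with a range of 0.00282 to 0.204 over 16 alternatives. F9, factor IX of the tenase complex, had 160.3, 182 and 203 CPM at 0 h and 155, 154 and 172 CPM at 48 h. Its groups overlapped and it did not pass (log2 fold change -0.18, SE 0.124, adjusted p = 0.279).

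The anticoagulant vitamin K-dependent proteins split. Proc, protein C, which inactivates factors V and VIII, had 334, 364 and 329 CPM at 0 h and 131, 149 and 152 CPM at 48 h. Every library at 48 h was less than any at 0 h by a wide margin. Proc fell by 1.25 on the log2 scale (SE 0.12, adjusted p = 2.37e-05). Proz, protein Z, a cofactor in the inhibition of factor Xa, had 655, 658 and 695 CPM at 0 h and 417, 465 and 431 CPM at 48 h, with a clear gap between the groups, and fell by 0.61 (SE 0.123, adjusted p = 0.00266). Pros1, protein S, the cofactor of protein C, went up instead. It had 40.1, 51.7 and 41.2 CPM at 0 h and 75.6, 65.1 and 62.0 CPM at 48 h, and all libraries at 48 h were higher. The log2 fold change of Pros1 was 0.61 (SE 0.128, adjusted p = 0.00361).

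Both members of the vitamin K cycle, which are enzymes, fell. Ggcx, the carboxylase that modifies the vitamin K-dependent proteins, had 188, 208 and 189 CPM at 0 h and 126, 124 and 123 CPM at 48 h. The libraries at 48 h were almost equal, and Ggcx fell by 0.65 on the log2 scale (SE 0.106, adjusted p = 0.000809). Vkorc1, the reductase that warfarin blocks, had 1.94, 1.74 and 1.93 CPM at 0 h and 0.921, 1.04 and 1.46 CPM at 48 h, without overlap. Its log2 fold change was -0.71 (SE 0.248, adjusted p = 0.0412). This call was lost without 0 h replicate 1 or 3 or without 48 h replicate 1 or 2, and the adjusted p ranged from 0.0247 to 0.143 over 16 alternatives. Of the exon bases of Vkorc1, 47.7% are shared with another gene model on the same strand, Gm21974, which was at 0 counts in every library. The level of Vkorc1 may therefore leave out reads from the shared bases. Vkorc1l1, a related gene that is not a member, was named after its values were seen. It stood above Vkorc1, at 46.7 ± 4.99 CPM at 0 h and 51.8 ± 2.76 CPM at 48 h (SD, n = 3). Its change did not pass (log2 fold change 0.15, edgeR adjusted p = 0.305).

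Among the initiator and the cofactors, F5 and F8 fell. F5, the cofactor of factor Xa, had 1278, 1318 and 1251 CPM at 0 h and 854, 869 and 1047 CPM at 48 h, with 48 h replicate 3 nearest to the 0 h libraries but still below them. It fell by 0.47 on the log2 scale (SE 0.140, adjusted p = 0.0205). The call was lost without 0 h replicate 1 (adjusted p = 0.0531) or 48 h replicate 2 (adjusted p = 0.0854), with a range of 0.000652 to 0.179 over 16 alternatives. F8, the cofactor of factor IXa, which the liver's endothelial cells make, had 16.0, 23.0 and 23.7 CPM at 0 h and 11.7, 14.3 and 13.5 CPM at 48 h. Its groups did not overlap, although 0 h replicate 1 was close to the 48 h libraries. F8 fell by 0.67 (SE 0.161, adjusted p = 0.00762). The endothelial marker list moved the same way in the same libraries, with 0 h replicate 1 lowest at 0 h in both (290.2 CPM summed), and its part in the F8 result was not tested. F3, tissue factor, was low, with 2.74 to 3.32 CPM at 0 h and 2.88 to 4.43 CPM at 48 h, and did not pass (log2 fold change 0.17, adjusted p = 0.557).

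In the contact system the 3 proteases fell and the kininogens did not. Klkb1, plasma prekallikrein, which frees bradykinin from kininogen, fell the most of all members. It had 142, 179 and 165 CPM at 0 h and 28.4, 45.9 and 56.9 CPM at 48 h. The libraries at 48 h were all far below those at 0 h, with replicate 1 the lowest. Klkb1 fell by 1.89 on the log2 scale (SE 0.218, adjusted p = 8.56e-05), to 0.271 of its level at 0 h. Of its exon bases, 43.2% are shared with another gene model on the same strand, Gm45753, which had 0 to 3 counts per library. F11, factor XI, which lies beside Klkb1 on chromosome 8, had 112, 108 and 97.9 CPM at 0 h and 58.0, 48.5 and 51.7 CPM at 48 h. There was no overlap, and it fell by 1.01 (SE 0.112, adjusted p = 6.4e-05). F12, factor XII, the first protease of the contact pathway, had 581, 579 and 625 CPM at 0 h and 393, 348 and 332 CPM at 48 h, again fully separated, and fell by 0.73 (SE 0.127, adjusted p = 0.00112).

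The kininogens carry bradykinin and bind prekallikrein and factor XI in plasma. Kng1 had 1715, 1903 and 1869 CPM at 0 h and 2255, 1746 and 1458 CPM at 48 h, and the 48 h libraries lay on both sides of the 0 h libraries. Its log2 fold change was -0.01 (SE 0.177, adjusted p = 0.979). Kng2 had 171, 205 and 181 CPM at 0 h and 334, 259 and 196 CPM at 48 h, with 48 h replicate 3 inside the range of 0 h. It passed with a log2 fold change of 0.50 (SE 0.181, adjusted p = 0.0472), but this call was lost in 11 of 16 alternatives, among them without 48 h replicate 1 (0.29, adjusted p = 0.179), and the adjusted p ranged from 0.00681 to 0.179. Kng1 and Kng2 are close copies of each other, so the division of reads between them is uncertain.

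**Figure D4:**
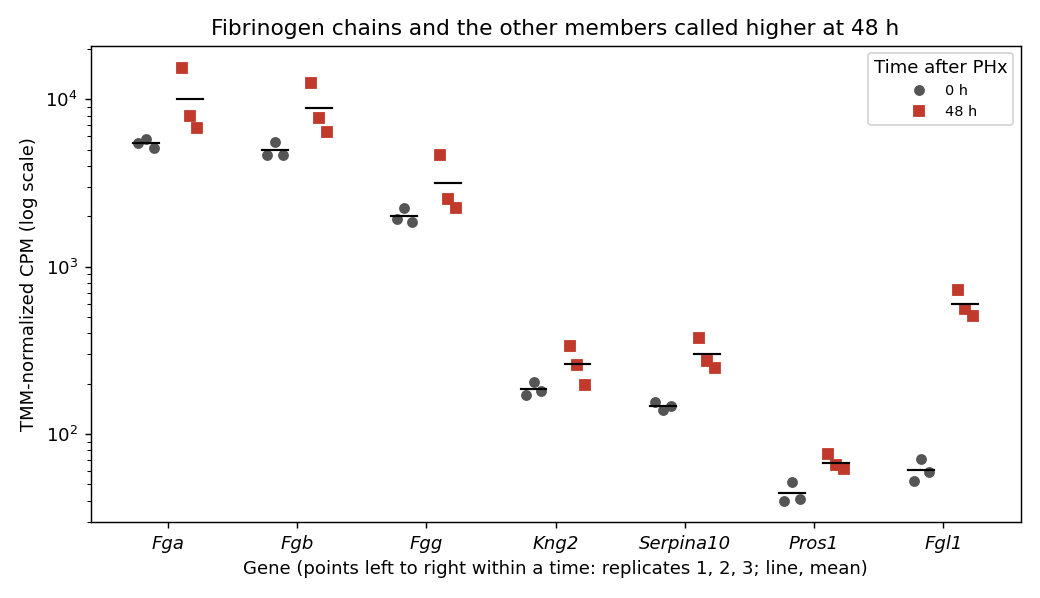
CPM (log axis) in each of the 3 libraries at 0 h and the 3 at 48 h for Fga, Fgb, Fgg, Kng2, Serpina10, Pros1 and Fgl1, one point per library. Fgl1 shows the widest gap between the groups, while the 48 h points of Fgg and Kng2 reach down into the range of the 0 h points.

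Hgfac, the protease that activates hepatocyte growth factor and resembles factor XII in its domains, fell with little spread between libraries. It is on chromosome 5 at 35041509 to 35048461 (mm10, plus strand). Its level was 231, 242 and 235 CPM at 0 h and 89.7, 88.4 and 86.2 CPM at 48 h. The libraries within each group nearly coincided, and the groups were far apart. Hgfac went from 236 ± 5.80 to 88.1 ± 1.79 CPM (SD, n = 3), which is 0.374 of its level at 0 h, a log2 fold change of -1.42 (SE 0.105, adjusted p = 3.61e-06).

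Plasminogen and the inhibitor of plasmin both fell. Plg, the zymogen of plasmin, had 3128, 3223 and 3318 CPM at 0 h and 2404, 2303 and 2229.9 CPM at 48 h. All libraries at 48 h were lower, and Plg fell by 0.48 on the log2 scale (SE 0.141, adjusted p = 0.0201). Serpinf2, alpha-2-antiplasmin, had 1222, 1319 and 1311 CPM at 0 h and 997, 908 and 891 CPM at 48 h, also lower in every library, and fell by 0.46 (SE 0.131, adjusted p = 0.0174). The ratio of Plg to Serpinf2 per length was 1.57 ± 0.0378 at 0 h and 1.56 ± 0.0407 at 48 h (SD, n = 3, exact permutation p = 0.6). Both calls were lost without 0 h replicate 3 (adjusted p = 0.0627 for Plg and 0.0541 for Serpinf2), without 48 h replicate 2 (0.071 and 0.0715) and without 48 h replicate 3 (0.062 and 0.0578). Over 16 alternatives the adjusted p ran from 5.01e-05 to 0.141 for Plg and from 0.000267 to 0.134 for Serpinf2. Exon bases of Plg overlap the antisense gene Slc22a3 over 11.3% of their length, and whether counting used strand is not given in the sources used here.

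The other antifibrinolytic members did not pass. Cpb2, a carboxypeptidase that removes plasminogen binding sites from fibrin, had 299, 305 and 342 CPM at 0 h and 449.8, 312 and 325 CPM at 48 h, with only 48 h replicate 1 outside the range of 0 h (log2 fold change 0.20, adjusted p = 0.345, and 0.012 without that library, adjusted p = 0.955, in a range of 0.0469 to 0.955 over 16 alternatives). Hrg, which binds plasminogen and heparin, had 1502 to 1702 CPM at 0 h and 1496 to 1517 CPM at 48 h (log2 fold change -0.10, adjusted p = 0.597). The plasminogen activators were barely detected. Plau, urokinase, had 10, 17 and 13 counts at 0 h and 8, 8 and 9 counts at 48 h, which did not pass (log2 fold change -0.83, SE 0.369, adjusted p = 0.1). Plaur, the urokinase receptor, had 6, 13 and 6 counts at 0 h and 20, 15 and 19 counts at 48 h. These groups did not overlap, and the log2 fold change of 0.94 (SE 0.405) did not pass (adjusted p = 0.0879), although it did without 0 h replicate 2 (1.41, adjusted p = 0.0264), in a range of 0.0264 to 0.244 over 15 alternatives. Plat, tissue plasminogen activator, had 0, 0 and 2 counts at 0 h and 5, 4 and 1 counts at 48 h and was not tested.

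Of the 6 inhibitors of coagulation 5 were tested, of which 2 fell (40%, against 19.3% of all genes) and 1 rose (20%, against 21.4%). Serpinc1, antithrombin, the main inhibitor of thrombin and factor Xa, had 1793, 1896 and 2005 CPM at 0 h and 1086, 1039 and 978 CPM at 48 h. The groups were well separated, and Serpinc1 fell by 0.88 on the log2 scale (SE 0.136, adjusted p = 0.000569), to 0.545 of its level at 0 h. Its exons overlap the antisense gene Zbtb37 over 34.4% of their bases. Per length, the ratio of F2 to Serpinc1, a protease and its inhibitor, was 1.55 ± 0.136 at 0 h and 1.54 ± 0.0775 at 48 h (SD, n = 3, exact permutation p = 1). Serpind1, heparin cofactor II, which inhibits thrombin, had 578, 594 and 614 CPM at 0 h and 321, 354 and 372 CPM at 48 h, with no overlap, and fell by 0.77 (SE 0.123, adjusted p = 0.000688).

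Serpina10, the protein Z-dependent protease inhibitor, rose while its cofactor Proz fell. It is on chromosome 12 at 103614786 to 103631444 (mm10, minus strand). Its level was 156, 140.1 and 147 CPM at 0 h and 376, 275 and 249.9 CPM at 48 h. Every library at 48 h was above every library at 0 h, with replicate 1 highest. The rise was 2.03-fold, from 148 ± 8.02 to 300.3 ± 66.8 CPM (SD, n = 3), a log2 fold change of 1.02 (SE 0.159, adjusted p = 0.00056), which lay between 0.83 (without 48 h replicate 1) and 1.22 over 16 alternatives with an adjusted p of at most 0.00411.

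The remaining inhibitors were low. Tfpi, tissue factor pathway inhibitor, chiefly an endothelial product, had 1.98, 4.0 and 3.86 CPM at 0 h and 2.08, 1.82 and 2.0 CPM at 48 h. Its 0 h replicate 1 stood within the 48 h libraries, and this library was also the one at 0 h nearest to them in the endothelial markers. The part of those markers in the Tfpi result was not tested, and the log2 fold change of -0.74 (SE 0.271) did not pass (adjusted p = 0.051). Without that library the log2 fold change of Tfpi was -1.01 (adjusted p = 0.0059), in a range of 0.0059 to 0.154 over 16 alternatives. Tfpi2 had 17.1 to 22.9 CPM at 0 h and 16.3 to 17.3 CPM at 48 h and did not pass (log2 fold change -0.28, adjusted p = 0.104), although it did without 0 h replicate 2 (-0.40, adjusted p = 0.0131), in a range of 0.0131 to 0.644. Serpina5, the protein C inhibitor, known in mice mainly from the reproductive tract, had 7, 3 and 7 counts at 0 h and 2, 1 and 21 counts at 48 h and was not tested.

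**Figure D5:**
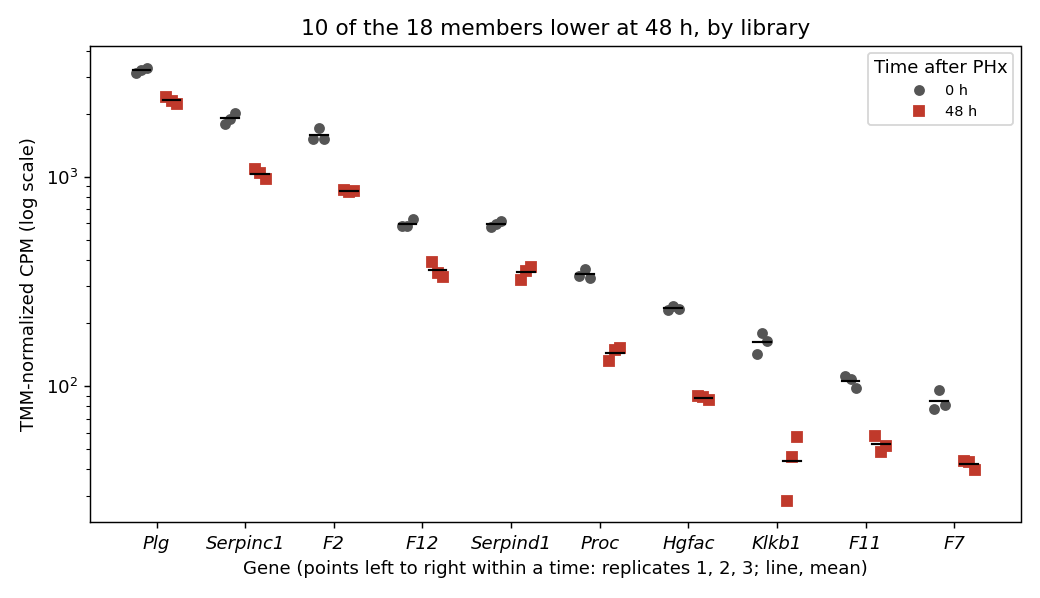
CPM (log axis) in each of the 3 libraries at 0 h and the 3 at 48 h for 10 of the 18 members that fell, one point per library: Plg, Serpinc1, F2, F12, Serpind1, Proc, Hgfac, Klkb1, F11 and F7. In each of the 10 genes the 48 h points lie below the 0 h points, and the points of Hgfac at 48 h nearly coincide.

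The spread between libraries at 48 h was computed with and without 48 h replicate 1. The coefficient of variation at 48 h had a median of 24.3% (10.5 to 46.9%) over the 6 members that rose and 7.1% (1.15 to 32.9%) over the 18 that fell, against medians of 11.3% over all genes that rose and 12.7% over all that fell. Without 48 h replicate 1, a choice made after seeing the data, the medians were 8.99% (3.4 to 19.7%) and 3.96% (0.465 to 23.9%) for the members and 9.29% and 9.34% for all genes. At 0 h the medians were 9.65% and 5.54% for the members and 14.4% and 12.3% for all genes. Among members that fell, 48 h replicate 1 was the lowest library in 8, replicate 3 in 8 and replicate 2 in 2, against 45.01%, 27.6% and 27.4% of all genes that fell for replicates 1, 3 and 2. Leaving out 1 library at a time, 3 to 7 members rose and 13 to 19 fell, beside 2649 to 3395 and 2540 to 3166 of all genes. The smallest number of members that rose came without 0 h replicate 1 or 3, and 4 rose without 48 h replicate 1.

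The members were also read by position. Within gaps of at most 100000 bases, 11 members lie in 4 clusters. On chromosome 8 (mm10), F7 at 13026034 to 13035809, F10 at 13037308 to 13056676 and Proz at 13060914 to 13076026 all fell. On the same chromosome F11 at 45241174 to 45262031 and Klkb1 at 45266689 to 45294859 both fell. On chromosome 16, Hrg at 22951072 to 22961656, Kng2 at 22985854 to 23029482 and Kng1 at 23057865 to 23082078 held 1 gene that rose and 2 that passed in neither direction.

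Other genes of haemostasis, a list of 32 that are not members, were called at shares near those of all genes: 7 of the 27 tested rose (25.9%, against 21.4% of all genes) and 5 fell (18.5%, against 19.3%). Of those with a mean of at least 10 CPM, Gas6, a protein related to protein S, rose the most, from 10.98 ± 2.11 to 35.6 ± 9.29 CPM (log2 fold change 1.70, SE 0.199, adjusted p = 9.56e-05), followed by S100a10, a plasminogen receptor subunit (0.81, adjusted p = 0.0112), and Mcfd2, which helps to export factors V and VIII from the cell (0.38, adjusted p = 0.0229). Apoh, beta-2-glycoprotein I, fell from 1368 ± 111 to 534 ± 17.9 CPM (log2 fold change -1.36, adjusted p = 2.88e-05), followed by Masp1, a lectin pathway protease (-0.75, adjusted p = 0.000563), and F2r, a thrombin receptor (-0.51, adjusted p = 0.0122). Chosen after its values were seen, Thbd, thrombomodulin, rose by 2.02 on the log2 scale (adjusted p = 0.000456). Adamts13, the protease of von Willebrand factor, was also picked on its values and fell by 1.48 (adjusted p = 0.000752).

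The acute-phase list, which holds no member, was led by Lcn2, Saa2 and Saa1, with log2 fold changes of 9.42, 8.55 and 7.08. Crp was the 1 gene of that list to fall (log2 fold change -0.41, adjusted p = 0.0389), and 0 genes of it fell without any 1 library at 0 h, without 48 h replicate 2 or 3, with library size alone or with a replicate block. Of 14 hepatocyte transcription factors 2 rose, Foxa3 (0.91, adjusted p = 8.43e-05) and Prox1 (0.67, adjusted p = 0.00393), and 2 fell, Cebpa (-0.97, adjusted p = 0.00449) and Onecut1 (-1.23, adjusted p = 0.016). Each count was 14.3% of the list, below the 21.4% of all genes that rose and the 19.3% that fell. Hnf4a did not pass (log2 fold change 0.23, adjusted p = 0.2).

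Markers of other cells were checked because several members are made outside the hepatocyte. The counts of markers that rose or fell stand beside 21.4% of all genes that rose and 19.3% that fell. Of 14 hepatocyte markers 5 fell and 0 rose, and their summed level was 115792 to 134283 CPM at 0 h and 77716 to 90917 CPM at 48 h; Alb fell by 0.86 on the log2 scale (adjusted p = 0.00847) and Apoa1 by 0.78 (adjusted p = 0.00321). Of 12 macrophage markers 3 rose and 1 fell (90.2 to 135 CPM summed at 0 h and 124 to 154 CPM at 48 h), with Clec4f at -0.11 and Marco at 3.19 on the log2 scale. Of 12 stellate cell markers 10 were tested, 2 rose and 2 fell, and their summed level was 115 to 179 CPM at 0 h and 80.3 to 101 CPM at 48 h. Lrat stood at -0.65 (adjusted p = 0.15) and Des at 0.14, while Ecm1 (-1.48) and Reln (-0.82) fell and Col1a1 (2.30) rose. Of 6 cholangiocyte markers 2 were tested and 1 rose, with 9.16 to 20.7 CPM summed at 0 h and 16.3 to 26.0 CPM at 48 h. Krt7 and Krt19 had 0 to 4 counts in any library, Sox9 had 228 to 662 counts and did not pass, and Spp1 rose (log2 fold change 1.51, adjusted p = 0.0212). None of the 9 neutrophil markers had enough counts to be tested. Their summed level was 0.121 to 0.409 CPM at 0 h and 0.654 to 1.06 CPM at 48 h, without overlap, with S100a8 and S100a9 at 0 to 3 counts, Camp at 2, 3 and 0 counts at 0 h and 6, 19 and 26 at 48 h, and Elane at 5, 1 and 3 counts at 0 h and 13, 16 and 8 at 48 h. Of 9 platelet markers 3 were tested and did not pass, the smallest adjusted p being 0.116 for Gp1ba (6.36 to 6.74 CPM summed at 0 h and 4.77 to 6.35 CPM at 48 h). Itga2b had 85 to 104 counts, Itgb3 41 to 105 and Gp1ba 10 to 40, Pf4 and Ppbp had 0 to 4 counts, and Gp1bb, Gp9, Gp6 and Treml1 were at 0 in every library. Markers named beyond the first 2 of each list were chosen after their values were seen, and the part of these lists in the members' results was not tested.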

How the data were processed

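Gene counts of 6 libraries (3 at 0 h, 3 at 48 h after PHx) were used. The authors deposited whole-number counts per GENCODE M21 gene ID, made, per the submitters' processing notes, with FastQC 0.11.5, Trim Galore 0.6.4, STAR 2.6 and HTSeq 0.12.4 on mm10; counting mode and strand setting are not given in the sources used here. Reads with no feature (24.3 to 32.7%) and ambiguous reads (4.27 to 5.29%) stayed out of library sizes. Genes that reached 10 counts in 3 or more libraries were scaled by TMM and tested with edgeR 4.0.16 in R 4.3.3 (quasi-likelihood, Benjamini-Hochberg over 17037 genes, threshold 0.05), with all 6 libraries and time as the only term. The SE was derived from the log2 fold change and its F statistic. For ratios an exact permutation test (two-sided) was used. The code was tested on simulated data. Members and lists were chosen with earlier results of these data known. All members were named, with, of other lists, the 3 largest changes in each direction at a mean of at least 10 CPM, and the first 2 markers of each cell type. Alternatives were DESeq2 1.42.0, limma 3.58.1 (voom), other scalings and filters, a fold threshold, the replicate block and leaving out each library. Labels give the mice as 10 to 12 weeks old, whereas the study's methods give a slightly younger age. Some items are not reported here.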

Additional observations from a re-analysis of the deposited data

How the results depend on the processing

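Directions and calls of F2, F7, F8, F11, F12, F13b, Fgl1, Ggcx, Hgfac, Klkb1, Proc, Pros1, Proz, Serpina10, Serpinc1 and Serpind1 were kept in 16 of 16 alternatives other than the fold threshold, and no called member reversed in them. Over all single-gene values in these alternatives 475 of 539 kept direction and side of the threshold, 40 lost the call, 17 gained it and 7 reversed. The reversals were of uncalled genes: with library size alone Kng1 was 0.19, Hrg 0.11 and F9 0.026; Kng1 was 0.01 without 0 h replicate 2, 0.02 without 48 h replicate 2 and 0.14 without 48 h replicate 3, and F3 was -0.027 without 48 h replicate 3. Over the libraries left out Kng1 ran from -0.19 to 0.14 and F3 from -0.027 to 0.29.

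With library size alone, 5309 genes rose and 2108 fell instead of 3638 and 3288, 3 other haemostasis genes and 0 acute-phase genes fell, and the calls on F5, F10, Plg, Serpinf2 and Vkorc1 were lost (adjusted p = 0.179, 0.204, 0.141, 0.134 and 0.143, edgeR), while Cpb2 (0.39, adjusted p = 0.0469), Fgg (0.83, adjusted p = 0.016) and Plaur (1.14, adjusted p = 0.0442) passed. With a log2 fold change of at least 1 required, 2 members rose and 5 fell, 1651 genes rose and 1353 fell, 2 other haemostasis genes fell, 0 acute-phase genes fell, and 0 transcription factors rose and 1 fell. The members' median was -0.56 with upper quartile scaling, -0.27 with library size, -0.53 over protein-coding genes and -0.49 with a minimum of 30 counts. Fgg passed in 4 of 16 alternatives, among them DESeq2 (adjusted p = 0.0209) and no filter on low counts (0.0053). Tfpi passed in 7 of 16, with DESeq2 (0.0317), RLE (0.0489) and upper quartile scaling (0.0367), protein-coding genes (0.0405), no filter (0.0168), a minimum of 30 counts (0.0484) and without 0 h replicate 1 (0.0059). Tfpi2 passed in 3 of 16.

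Leaving out 1 library gave 3 to 7 members that rose, 13 to 19 that fell, 2649 to 3395 genes that rose, 2540 to 3166 that fell, 5 to 7 and 5 to 5 other haemostasis genes, 18 to 21 and 0 to 1 acute-phase genes, 1 to 3 transcription factors that fell, and a members' median of -0.51 to -0.46. The summed level, 0.22 on the log2 scale, ran from -0.01 (without 48 h replicate 1) to 0.37.

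Replicate numbers did not pair libraries (correlations of deviations 0.033, -0.067 and -0.138). With the replicate block 5 of the 34 members tested rose and 14 fell, beside 3237 and 2884 of all 17037 genes tested. In that fit 0 acute-phase genes fell, and the calls on F5, Kng2, Plg, Serpinf2 and Vkorc1 were lost (edgeR adjusted p = 0.0511, 0.069, 0.0635, 0.0537 and 0.0598).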
